A study of Mus musculus with 4 samples.

Results

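Homologous recombination and Fanconi genes were examined in B16-OVA cells 6 hours after transfection. B16-OVA is a melanoma line of mouse that was given ovalbumin as a model antigen. The 31 genes were chosen by name for their roles in DNA repair, with earlier results of these data known. Of them, 27 were measured among 22180 genes in all. Each was read from a probe that the platform annotation gives to that gene alone. Rbbp8, Xrcc2, Rad54b and Fanca had no such probe in the data used and were not analysed here. The 4 arrays fall into 2 groups of 2, mock transfected cells and cells that received AT90ES. By the labels AT90ES is taken to be the 90mer of double-stranded DNA that the treatment text describes. Lipofectamine 2000, a cationic lipid, is named in a treatment text shared by both groups, and the labels do not tell whether mock cells were given lipid alone. The labels do not say whether replicates came from separate cultures, so the p-values rest on a spread between arrays that may be technical.

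Homologous recombination repairs a double-strand break by copying an intact sister chromatid. The broken end is first cut back to single-stranded DNA by the MRN complex and CtIP under the control of BRCA1 and BARD1. BRCA2, brought in through PALB2, then readies the single strand for strand invasion, the BCDX2 and CX3 complexes and RAD54 assist, and helicases and nucleases separate the joined molecules. The Fanconi pathway handles crosslinks between the strands: a core complex with the ubiquitin ligase FANCL modifies the FANCD2-FANCI pair, which directs nucleases to the lesion. Many of these genes are transcribed mainly in S and G2 phase, when a sister chromatid is at hand, and E2F factors drive a number of them.

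Because E2F factors are known regulators of this pathway, promoters from 250 bases before to 50 bases after the RefSeq start sites (assembly GRCm38.p6) were searched on both strands. The E2F words were TTTCCCGC, TTTGGCGC, TTTCGCGC and TTTGCCGC. At least 1 of them was found in 5 of the 23 measured members with a promoter in the table, Bard1, Brca2, Topbp1, Fancg and Rad51c. Among all 16990 measured genes with a promoter the share was 3.26%, and among all 32851 promoters of this length in the table it was 2.26%. The 250 bases upstream of 6 members are shown, 4 that hold an E2F word there and the 2 members with the lowest log2 fold changes, Fancb and Rad54l, which hold none. Capitals mark the E2F words, the CHR words TTTGAA and TTCGAA, and the CCAAT box, each on either strand.
Bard1 (chr1:71102973-71103222, minus strand): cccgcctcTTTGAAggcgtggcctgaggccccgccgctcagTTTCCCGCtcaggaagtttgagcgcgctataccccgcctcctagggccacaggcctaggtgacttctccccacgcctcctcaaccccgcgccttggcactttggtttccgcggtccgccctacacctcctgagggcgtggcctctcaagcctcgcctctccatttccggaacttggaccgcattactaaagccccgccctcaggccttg
Brca2 (chr5:150522371-150522620, plus strand): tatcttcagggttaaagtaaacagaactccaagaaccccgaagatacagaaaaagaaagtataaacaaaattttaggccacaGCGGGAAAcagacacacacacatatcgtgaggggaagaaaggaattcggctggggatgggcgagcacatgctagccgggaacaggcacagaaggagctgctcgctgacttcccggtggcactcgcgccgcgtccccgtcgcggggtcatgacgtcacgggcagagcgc
Topbp1 (chr9:103305077-103305326, plus strand): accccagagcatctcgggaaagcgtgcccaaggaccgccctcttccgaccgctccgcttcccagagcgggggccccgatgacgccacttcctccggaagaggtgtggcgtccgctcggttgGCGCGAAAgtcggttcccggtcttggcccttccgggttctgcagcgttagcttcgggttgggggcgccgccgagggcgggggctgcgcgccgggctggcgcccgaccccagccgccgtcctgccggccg
Fancg (chr4:43010302-43010551, minus strand): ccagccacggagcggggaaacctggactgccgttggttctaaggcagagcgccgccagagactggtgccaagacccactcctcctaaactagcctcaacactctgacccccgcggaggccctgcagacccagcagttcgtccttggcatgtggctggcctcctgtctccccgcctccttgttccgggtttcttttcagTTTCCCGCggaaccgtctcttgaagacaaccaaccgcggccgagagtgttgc
Fancb (chrX:164980342-164980591, plus strand): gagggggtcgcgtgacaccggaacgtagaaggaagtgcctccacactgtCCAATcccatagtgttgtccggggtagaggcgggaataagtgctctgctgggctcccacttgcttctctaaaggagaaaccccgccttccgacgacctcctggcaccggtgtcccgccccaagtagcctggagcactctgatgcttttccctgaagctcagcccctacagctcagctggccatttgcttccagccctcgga
Rad54l (chr4:116123691-116123940, minus strand): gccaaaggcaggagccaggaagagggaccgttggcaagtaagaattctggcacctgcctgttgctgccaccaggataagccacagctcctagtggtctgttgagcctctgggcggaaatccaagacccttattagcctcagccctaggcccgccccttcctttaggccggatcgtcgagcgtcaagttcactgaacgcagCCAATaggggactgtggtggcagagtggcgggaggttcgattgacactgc
The E2F word starts 209 bases before the start site in Bard1, 168 in Brca2, 129 in Topbp1 and 52 in Fancg. Rad51c has 2 listed start sites, with a word that begins 5 bases before the first base of one and another that lies within the transcribed part of the other. CHR words were found in 3 of 23 members against 19.4% of measured genes, and a CCAAT box in 13 against 41.6%. Xrcc3 had the most, with 6 CCAAT matches. A match is a run of letters and was not tested as a binding site.

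No recombination or Fanconi gene passed the test between AT90ES and mock cells. In limma 0 of 27 members were lower and 0 higher at an adjusted p under 0.05, where 0 of 22180 genes (0%) were lower and 92 (0.415%) higher. At an unadjusted p under 0.05, 3 members were lower, Fancb, Rad54l and Rad51c, and 0 were higher. The same rule took 4.59% of all genes as lower and 4.5% as higher, and 4.04% and 6.13% of the 11704 genes above background on every array. The count of 3 lower members was 2 with arrays centred on the median of all genes (2.95% of all genes). It was 7 with arrays centred on reference genes (9.22%) and 7 after quantile normalization (5.32%). Without mock replicate 2 the log2 fold changes of Fancb, Rad54l and Rad51c were -0.40, -0.40 and -0.29. When the spread was fitted with an intensity trend, limma again called 0 members in either direction, while it called 0.73% of all genes lower and 1.94% higher. The members' log2 fold changes ran from -0.49 to 0.20 with a median of -0.11, beside -0.02 over all genes, and 19 were below 0 (54.6% of all genes). RNA was taken from whole cultures, so fewer cells with a transcript and less transcript per cell cannot be told apart.

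The intervals of the members rest on the spread between arrays, which may be technical, and so may not bound a change between cultures. The 95% intervals of 26 of 27 members lay within a 2-fold change in either direction, the exception being Eme1, whose interval reached past a 2-fold fall. For 17 members the interval lay within a 1.5-fold change. A 1.5-fold fall was inside the interval for 8, Bard1, Nbn, Rad51c, Xrcc3, Rad54l, Fancb, Blm and Eme1, and a 1.5-fold rise for Rad51d and Fancg. These intervals are for 1 gene at a time. Fancc is among the 17 but lay above background on only 1 array, so a fall in it could be hidden.

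**Figure D1:**
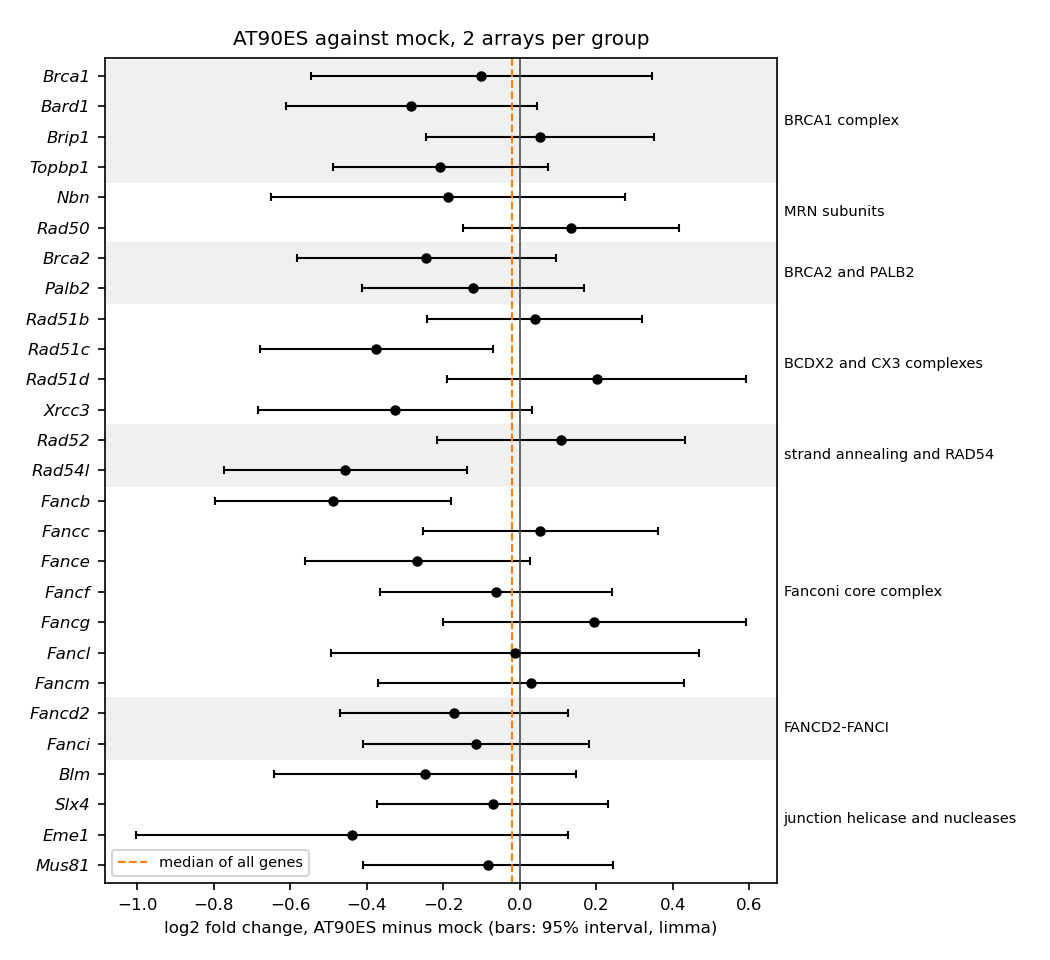
Log2 fold change of each of the 27 measured members, AT90ES minus mock, with its 95% interval from limma (2 arrays per group), ordered by role; the dashed line is the median of all genes. Only the intervals of Fancb, Rad54l and Rad51c leave out 0, and that of Eme1 is the widest.

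The 5 interferon-response genes taken as a check of the treatment rose, with log2 fold changes of 6.32 for Ccl5, 6.05 for Ifit1, 5.11 for Cxcl10, 4.25 for Rsad2 and 4.16 for Isg15. All 7 pigment cell markers lay above background on all 4 arrays. Background was set on each array at the 95th percentile of olfactory receptor genes, 4.85 to 5.07. Of other cell types, 4 of 6 markers of myeloid cells, 3 of 6 of fibroblasts or endothelium and 1 of 5 of lymphocytes lay above it on all arrays, and Ptprc, Itgam, Cd3e, Cd4, Cd8a and Cd79b on none. The summed log2 levels of the myeloid markers were 31.2 to 31.8 in mock and 30.4 to 31.3 in AT90ES cells. Lymphocyte markers summed to 23.5 to 23.7 and 22.9 to 23.3, fibroblast and endothelial markers to 32.2 on both mock arrays and 32.5 to 32.8. The part of these markers in any result was not tested. Of the members, 26 lay above background on all arrays and Fancc on 1.

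**Figure D2:**
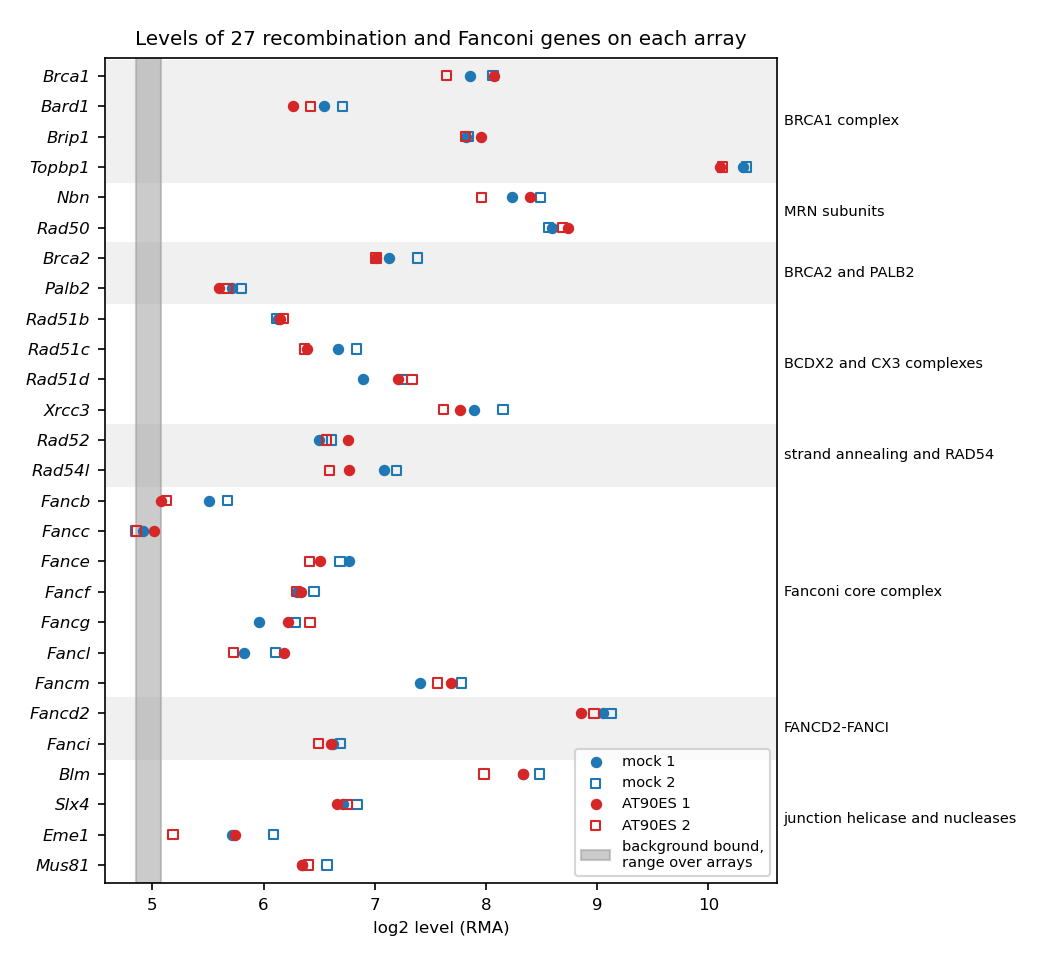
Log2 level (RMA) of the 27 members on each of the 4 arrays, mock in blue and AT90ES in red, replicate 1 filled and replicate 2 open. The grey band is the range of the background bound over the arrays, 4.85 to 5.07, and Fancc is the only member inside it.

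In 11 members both AT90ES arrays lay below both mock arrays, and in 2, Rad50 and Rad51b, both lay above. Among all genes 22.1% were separated downward and 17.7% upward, and among genes above background on every array 22.9% and 23.2%. A lone array separates more easily: without mock replicate 1 the number of members separated downward was 18, where 37.2% of all genes were, and without AT90ES replicate 1 it was also 18, where 36.7% were. Upward it was 7 without the second array of mock (32.3% of all genes) or of AT90ES (31.98%), and 4 without AT90ES replicate 1 (30.95%). A stricter count took differences larger than the gap between replicates in both groups. It held for 10 members downward and 2 upward, against 15.3% and 12.7% of all genes. Among genes above background on every array it held for 16.8% and 17.3%. With 2 arrays against 2, the smallest two-sided p of an exact permutation test is 0.333, so no such test could pass.

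Among genes of the BRCA1 complex, Bard1 and Topbp1 were separated downward (22.1% of all genes were) and Brca1 and Brip1 overlapped. Bard1, the obligate partner of BRCA1 in its ubiquitin ligase, read 6.54 and 6.71 in mock and 6.26 and 6.42 in AT90ES cells. Its log2 fold change was -0.28 ± 0.13 (SE; adjusted p = 0.597). Topbp1, which activates the checkpoint kinase ATR, read 10.31 and 10.34 in mock and 10.11 and 10.13 in AT90ES cells. The replicates of Topbp1 lay close together in both groups and the difference was -0.21 ± 0.11 (adjusted p = 0.653). Brca1 itself read 7.85 and 8.06 in mock and 8.07 and 7.65 in AT90ES cells. The AT90ES arrays of Brca1 held both its highest and its lowest value, and its log2 fold change was -0.10 (95% interval -0.55 to 0.34). Brip1, a helicase that binds BRCA1, stood at 0.05 with overlapping groups.

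Of the MRN subunits, which hold and process broken ends, Rad50 and Nbn are members, and none of the 3 passed the test. Rad50, the ATPase that tethers the ends, read 8.60 and 8.56 in mock and 8.74 and 8.69 in AT90ES cells, a difference of 0.13 ± 0.11 (adjusted p = 0.782). Nbn, the subunit that recruits ATM, had values of 8.24 and 8.49 in mock and 8.39 and 7.96 in AT90ES cells. The gap of 0.43 between the AT90ES arrays of Nbn exceeded its difference between groups, -0.19. The third subunit, the nuclease Mre11a, is no member and was named after its value was seen. It read 8.71 and 8.62 in mock and 8.48 and 8.32 in AT90ES cells, a difference of -0.27 ± 0.12 (adjusted p = 0.598).

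Brca2, which acts before strand invasion, read 7.13 and 7.39 in mock cells and 7.01 on both AT90ES arrays. The groups of Brca2 did not overlap, but the difference of -0.24 ± 0.14 (adjusted p = 0.658) was smaller than the gap of 0.26 between its mock arrays. Palb2, the bridge between BRCA1 and BRCA2, read 5.72 and 5.80 in mock and 5.60 and 5.67 in AT90ES cells, a difference of -0.12.

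The genes of the BCDX2 and CX3 complexes, which assist strand invasion, were mixed. Rad51c, which takes part in both complexes, read 6.67 and 6.83 in mock and 6.39 and 6.37 in AT90ES cells. Its log2 fold change was -0.38 ± 0.12 (unadjusted p = 0.024, adjusted p = 0.461 in limma). Xrcc3, the partner of RAD51C in the smaller complex, read 7.89 and 8.15 in mock and 7.77 and 7.62 in AT90ES cells, a difference of -0.33 ± 0.14 (adjusted p = 0.579). For both partners the AT90ES arrays were the lower pair, as they were for 22.1% of all genes. Rad51b and Rad51d belong to the larger complex. Rad51b had the closest replicates, with 6.13 and 6.12 in mock and 6.15 and 6.18 in AT90ES cells, and stood at 0.04. Rad51d read 6.90 and 7.25 in mock and 7.21 and 7.33 in AT90ES cells, and its 0.20 was the highest log2 fold change of the members, with overlapping groups. Without mock replicate 1 it was 0.025.

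Rad54l, a motor protein that drives strand invasion, read 7.08 and 7.19 in mock and 6.77 and 6.60 in AT90ES cells. The difference of -0.46 ± 0.13 had an unadjusted p = 0.013 and an adjusted p = 0.402 in limma. Another probe, which the annotation gives to both Lrrc41 and Rad54l and which therefore named no gene, stood at -0.00041 with 7.38 and 7.48 in mock and 7.43 and 7.44 in AT90ES cells. Rad52, a single-strand annealing protein, stood at 0.11 with overlapping groups (6.50 and 6.61 in mock, 6.76 and 6.56 in AT90ES cells).

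Of the 7 measured genes of the Fanconi core complex, Fancb and Fance were separated downward (22.1% of all genes were) and the other 5 overlapped. Fancb, which holds FANCL in the catalytic module of the complex, read 5.51 and 5.68 in mock and 5.08 and 5.13 in AT90ES cells. This was the lowest log2 fold change of the members, -0.49 ± 0.12 (unadjusted p = 0.0086, adjusted p = 0.37 in limma), a level 1.40-fold lower. The AT90ES values of Fancb lay close to the background bound of 4.85 and 4.92 on those arrays, so the size of its difference is uncertain. Fance, the subunit that contacts FANCD2, read 6.77 and 6.69 in mock and 6.51 and 6.41 in AT90ES cells, a difference of -0.27 ± 0.12 (adjusted p = 0.579). Fancl, the ubiquitin ligase, stood at -0.01, with values of 5.82 and 6.11 in mock and 6.18 and 5.73 in AT90ES cells. The AT90ES arrays of Fancl spanned both mock values. Fancf, Fancg, Fancm and Fancc had log2 fold changes of -0.06, 0.19, 0.03 and 0.05, all with overlapping groups. For Fancg, which holds an E2F word, the values were 5.96 and 6.29 in mock and 6.22 and 6.42 in AT90ES cells.

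The pair that the core complex modifies was separated downward with small differences (22.1% of all genes were separated downward). Fancd2 read 9.05 and 9.12 in mock and 8.86 and 8.97 in AT90ES cells, a difference of -0.17 ± 0.12 (adjusted p = 0.732). Its partner Fanci read 6.63 and 6.69 in mock and 6.60 and 6.49 in AT90ES cells, a difference of -0.11.

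Genes that resolve joined molecules all had negative log2 fold changes (54.6% of all genes did) and overlapping groups. Eme1, the partner of the nuclease MUS81, read 5.72 and 6.09 in mock and 5.74 and 5.19 in AT90ES cells. Its difference of -0.44 ± 0.23 (adjusted p = 0.638) was smaller than the gap of 0.56 between its AT90ES arrays. Blm, a helicase that dissolves double junctions, read 8.33 and 8.48 in mock and 8.33 and 7.98 in AT90ES cells, and stood at -0.25 ± 0.16. Mus81 stood at -0.08 and Slx4, the scaffold for several nucleases, at -0.07. Without mock replicate 2 Mus81 stood at 0.029.

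Members that hold an E2F word were compared with those that do not, as a description. Rad50, Nbn, Rad51d and Fancd2 had no listed promoter and are in neither group. The 5 with a word had a median log2 fold change of -0.24, from -0.38 for Rad51c to 0.19 for Fancg. Of these, 4 were separated downward, beside 22.1% of all genes. The share among all measured genes that hold an E2F word was not computed. The 18 members without a word had a median of -0.09, from -0.49 for Fancb to 0.11 for Rad52. Among the 18, 6 were separated downward and 1 upward, beside 22.1% and 17.7% of all genes. The ranges overlapped, and the lowest 3 members without a word, Fancb, Rad54l and Eme1, lay below all 5 with one.

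Variation between replicates was itself uneven across the members. On mock array 2, 23 of 27 members read higher than on mock array 1, against 51.4% of all genes and 61.3% of genes above background on every array. The median gap was 0.15 on the log2 scale for the members, 0.008 for all genes and 0.046 for genes above background on every array. Between the AT90ES arrays, 17 members read higher on replicate 1, beside 51.4% of all genes and 60.3% of those above background on every array. The median of replicate 2 minus replicate 1 was -0.051 for the members and -0.042 for genes above background. The mean level of the 27 members was 6.99 and 7.15 in mock and 6.99 and 6.90 in AT90ES cells, so mock array 1 and AT90ES array 1 stood at the same mean. The median log2 fold change of the members was -0.059 without mock replicate 2 and -0.19 without mock replicate 1. It was -0.073 without AT90ES replicate 2 and -0.17 without AT90ES replicate 1.

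**Figure D3:**
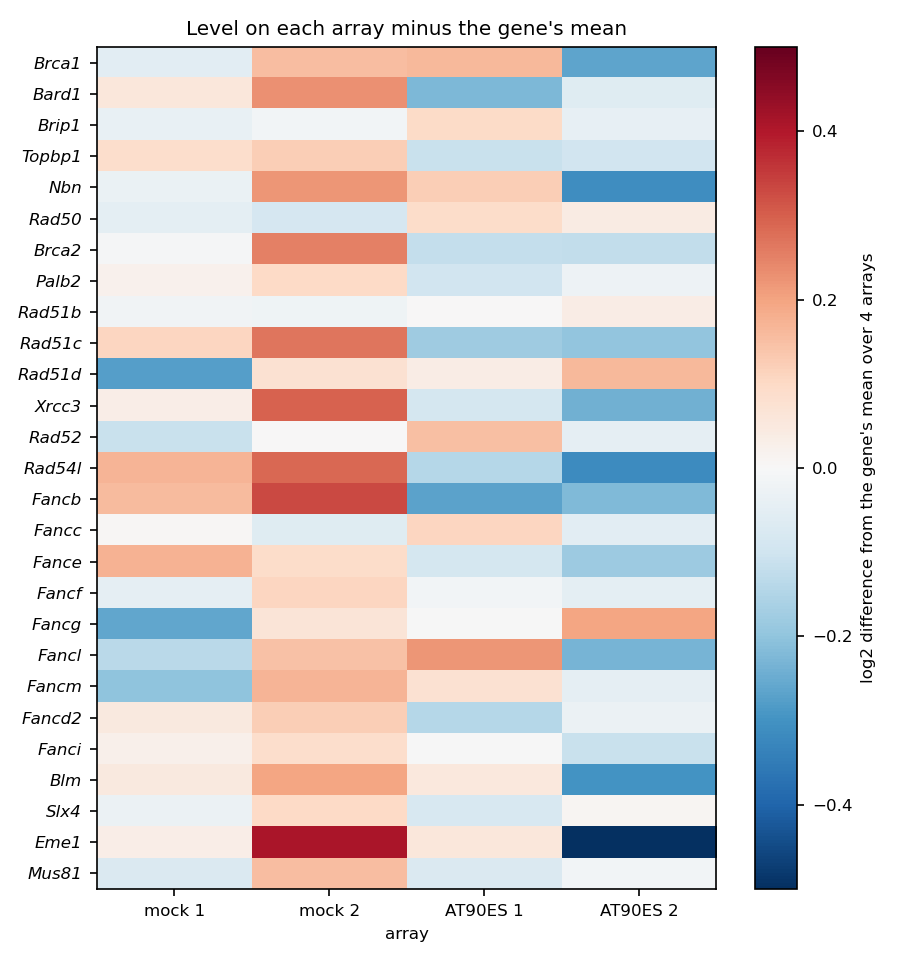
Level of each member on each array minus that gene's mean over the 4 arrays, on the log2 scale (red above, blue below). Most members are red on mock 2, where 23 of 27 exceed their mock 1 value, and in Brca1, Nbn, Fancl, Blm and Eme1 AT90ES 2 lies well below AT90ES 1.

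The other genes of the pathway had 0 of 64 past the adjusted threshold in either direction in limma, over 5 lists by role. The counts of each list are at an unadjusted p under 0.05, where 4.59% of all genes were lower and 4.5% higher. Of 12 measured end resection genes, 3 were lower and 1 higher at an unadjusted p under 0.05, and the 2 with the highest levels, Rpa1 and Nabp2, which bind single-stranded DNA, stood at 0.07 and 0.02. Of 16 strand exchange accessory genes, 2 were lower and 1 higher, with Sfr1 at -0.04 and Swi5 at 0.02, which form a complex with each other. Of 19 Fanconi accessory genes, 3 were lower and 0 higher. Usp1, which removes ubiquitin from FANCD2, stood at -0.36 and its cofactor Wdr48 at 0.01. Of 9 BRCA1-A complex and partner genes, 0 were lower or higher, with Sem1 at 0.07 and Babam1 at -0.07. Of 8 junction processing genes, 1 was lower and 0 higher, with the SMC5/6 complex genes Smc6 at -0.16 and Nsmce2 at 0.22.

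Medians of these lists ran from -0.14 for junction processing to -0.03 for the BRCA1-A complex. Non-homologous end joining, the repair route that joins ends without a template, had a median of 0.03 over 13 genes, with 0 lower and 1 higher at an unadjusted p under 0.05, Rif1 at -0.25 and Xrcc5 at 0.01. The S-phase genes driven by E2F had a median of -0.28. All 19 were below 0 (54.6% of all genes) and 16 were separated downward (22.1%). At an unadjusted p under 0.05 in limma, 8 were lower (4.59% of all genes), with 0 past the adjusted threshold. E2f1 stood at -0.26, Pcna, the replication clamp, at -0.06 and Rrm1, a subunit of ribonucleotide reductase, at -0.23. Targets of p53 went the other way: all 12 had positive log2 fold changes and were separated upward (17.7% of all genes). Of the 12, 8 were higher past the adjusted threshold in limma (0.415% of all genes), and the list's median was 1.21. Cdkn1a, the cell cycle inhibitor, stood at 1.26, Mdm2, which degrades p53, at 1.39, Phlda3 at 1.17 and Ccng1 at 1.02. Trp53inp1, at 3.12, was followed by Btg2 at 2.56, Plk2 at 2.55 and Sesn2 at 2.08. Both lists were chosen with earlier results of these data known, so their counts are a description. The part of the S-phase or p53 genes in the members' values was not tested.

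**Figure D4:**
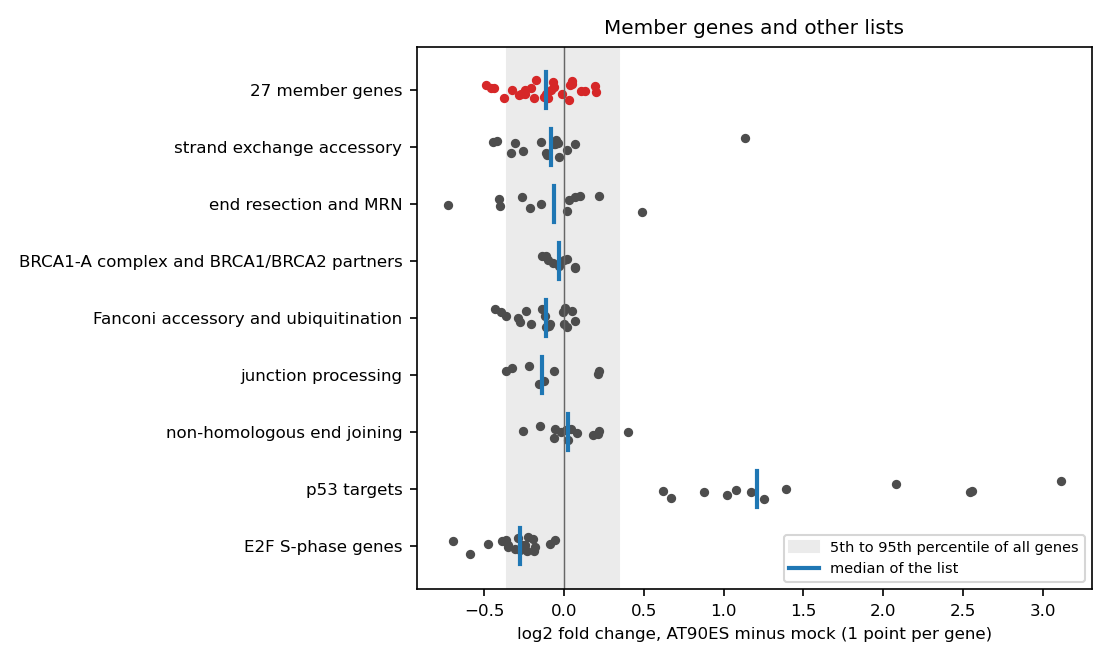
Log2 fold change, AT90ES minus mock, of the 27 members (red) and of the genes of 8 other lists (grey), 1 point per gene, with each list's median in blue and the 5th to 95th percentile of all genes shaded. The members' median of -0.11 lies between those of the E2F S-phase genes, -0.28, and of non-homologous end joining, 0.03; the p53 targets lie to the right of 0.

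Across 13 alternative settings, no member passed the adjusted threshold, and the lowest adjusted p of a member was 0.0843, for Topbp1. The sign of the log2 fold change was negative in every one of them for 14 members, among them Fancb, Rad54l, Rad51c, Xrcc3, Bard1 and Eme1. It was positive in every one for Rad50, Rad51d, Rad52 and Fancg, though without mock replicate 1 Fancg stood at 0.031, and without AT90ES replicate 1 Rad52 stood at 0.010. The other 9, Brca1 and Nbn among them, changed sign in at least 1. Fitting an intensity trend or a replicate block, leaving out dim probes, and averaging or separately testing probes kept the members' values as reported. Under those settings no sign could change.

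**Figure D5:**
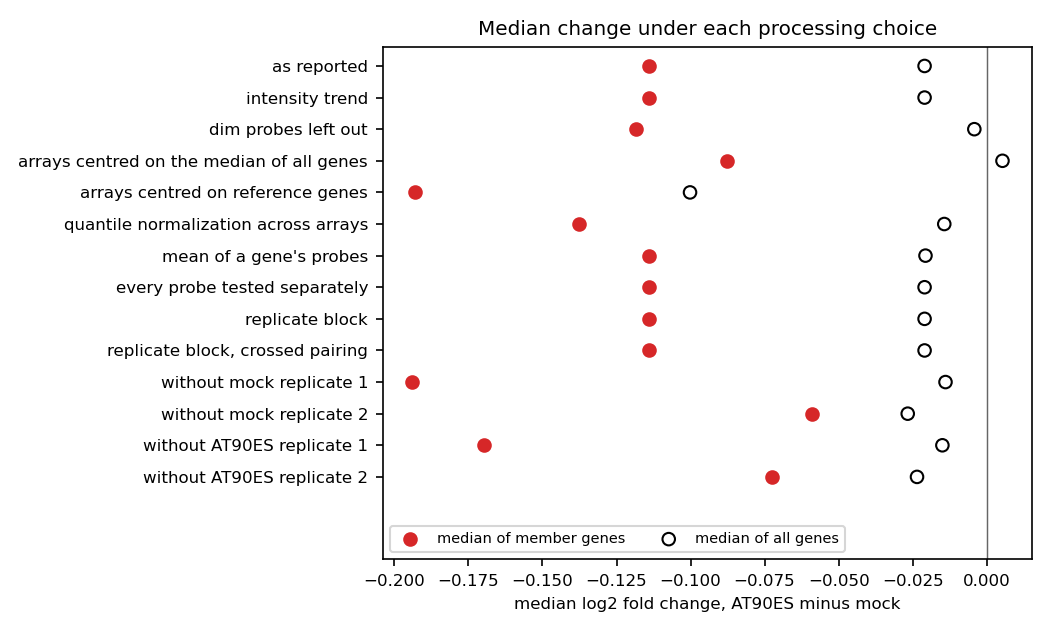
Median log2 fold change, AT90ES minus mock, of the members (red) and of all genes (open) under each processing choice. The members' median lies below 0 and below that of all genes in each setting shown, between -0.19 and -0.059.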

How the data were processed

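RNA of 4 B16-OVA samples, 300 ng each per the labels' protocols, was measured on Affymetrix gene arrays. The deposited log2 levels of 41345 probes come from RMA according to the submitters' processing notes, with software and settings not stated there. RMA equalises array distributions, so a change shared by all genes cannot be seen. Precision is limited by having 2 arrays per group.

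The platform annotation gave 1 gene symbol to 23521 probes and several to 1814. Each of 22180 genes was read from its brightest probe by mean level; no measured member had a second probe of its own. Groups were compared with limma 3.58.1 (R 4.3.3; lmFit, eBayes, no covariate, no filter), with two-sided p-values adjusted by Benjamini-Hochberg over all genes at 0.05. The steps were tested on simulated data. All members were named; of other lists, genes past the threshold or the 2 with the highest mean level, plus the treatment check genes, Cdkn1a, Mdm2 and E2f1. An item of the naming rule is not reported here. Members and lists were chosen with earlier results of these data known. Promoters are from RefSeq.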

Additional observations from a re-analysis of the deposited data

How the results depend on the processing

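Members past the adjusted threshold numbered 0 lower and 0 higher in each of the 13 alternatives. Of 350 values of single members, 18 changed sign, though settings that alter only the spread, block or probes could not change one. At an unadjusted p under 0.05 the lower members numbered 3 as reported, 5 with an intensity trend (5.58% of all genes), 5 with dim probes left out (6.17%), 7 with arrays centred on reference genes (9.22%) and 7 after quantile normalization (5.32%). Leaving out single arrays gave 1 to 4 (3.10% to 4.44%). Members separated downward numbered 17 with arrays centred on reference genes (35.0%) and 11 to 18 without single arrays (36.7% to 39.6%); those separated upward numbered 1 with arrays centred on reference genes (10.0%), 1 with arrays centred on the median (17.9%) and 3 to 7 without single arrays (30.95% to 32.3%). The members' median was -0.19 with arrays centred on reference genes, where that of all genes was -0.10, and -0.19 to -0.059 without single arrays. A lone array was assumed to vary like the other group.

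With the replicate number as a block, 2 members were lower at an unadjusted p under 0.05 (2.998% of all genes). No member's adjusted call changed, while over all genes 85 were higher past the adjusted threshold, beside 92 as reported. Deviations of same-numbered arrays from the group means had r = -0.22 across genes, which are not independent. This value cannot settle whether the samples were paired. A crossed pairing, chosen after seeing the data, gave 5 lower members at an unadjusted p under 0.05 (6.38%) and 0 past the adjusted threshold. Fancc was left out with the dim probes.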

Other observations

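Some genes of the other repair lists are named here after their values were seen, of which Exo1 and Mnd1 lay farther from 0 than any member. Exo1, a nuclease of long-range end resection, read 8.69 and 8.62 in mock and 7.82 and 8.03 in AT90ES cells, a log2 fold change of -0.73 (unadjusted p = 0.0016, adjusted p = 0.181 in limma). Ctc1, a subunit of the complex that assists fill-in at telomeres, read 8.83 and 8.81 in mock and 9.34 and 9.28 in AT90ES cells, at 0.49 (adjusted p = 0.324). Mnd1, a meiotic cofactor, stood at 1.13 but lay under the background bound on all 4 arrays. Its mock arrays, at 4.12 and 2.80, were farther apart than its difference between groups. Nhej1, a factor of end joining, stood at 0.40 with separated groups (adjusted p = 0.418).

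Besides the shared probe of Lrrc41 and Rad54l, 3 probes are annotated to a member together with another gene, and none passed when every probe was tested separately in limma. That of Fanca and Zfp276 stood at -0.26 (adjusted p = 0.801), that of Rad54b and Fsbp at -0.08 and that of Vrk2 and Fancl at 0.0027.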
